A study of Mus musculus with 2 samples.

Results

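The genes described here are 39 genes of cholesterol and fatty acid synthesis, with the regulators that set the activity of these pathways and the transporters that export cholesterol. They were taken by gene symbol from a list. The rule uses no signal values, but the list was drawn up with earlier results of these data known. Of the 39 genes, 37 had at least 1 probe set assigned to that gene alone, with 85 such probe sets in all, out of 18193 genes and 34945 probe sets named in the same way. Acat2, a cytosolic thiolase, and Nr1h2, a liver X receptor, had none and were not analysed here.

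Signals came from 2 Affymetrix arrays, both hybridized with RNA of whole pancreatic islets from mice aged 2 to 3 months on a mixed background. The first array held islets of mice with a beta cell-specific knockout of Zbtb20, which encodes a zinc finger transcription factor, and the second array held islets of wild-type littermate controls. The study looked for genes under the control of ZBTB20 in beta cells. All islets were hand-picked after collagenase digestion, cultured overnight and frozen. The Cre line, the deleted part of Zbtb20 and the number of mice behind each array are not given in the sources used here. Islets also hold alpha, delta and other cells that keep the gene.

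Cells make cholesterol from acetyl-CoA through mevalonate, squalene and lanosterol, and they make fatty acids from the same acetyl-CoA through malonyl-CoA. Transcription factors of the SREBP family switch on the enzymes of both pathways. SCAP carries SREBP to the Golgi for cleavage when membranes are poor in sterol, and INSIG proteins hold the complex in the endoplasmic reticulum when sterol is plentiful. Liver X receptors (LXR) sense oxidised sterols and switch on the cholesterol exporters ABCA1 and ABCG1. In beta cells, an excess of cholesterol is known to impair insulin secretion.

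The promoters below are shown because they carry motifs read by SREBP or by its usual partner NF-Y, and because the 4 genes differed in their signal ratios. Promoter windows were taken from RefSeq on the build GRCm38.p6 and cover the 250 bases before an annotated start. Capitals mark the core of the sterol regulatory element (TCACNCCAC), the E-box (CACGTG) and the CCAAT box (CCAAT), each searched on both strands. Hmgcs1 lies on the plus strand at chr13:119690101-119690350, Mvk on the plus strand at chr5:114444019-114444268, Insig1 on the plus strand at chr5:28071162-28071411, and the Dhcr7 window with the most matches on the plus strand at chr7:143829964-143830213.
Hmgcs1: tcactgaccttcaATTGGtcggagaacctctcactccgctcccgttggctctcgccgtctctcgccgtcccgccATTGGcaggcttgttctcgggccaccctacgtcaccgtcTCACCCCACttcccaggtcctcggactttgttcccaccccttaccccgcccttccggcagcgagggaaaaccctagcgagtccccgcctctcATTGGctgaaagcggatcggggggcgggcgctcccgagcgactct
Mvk: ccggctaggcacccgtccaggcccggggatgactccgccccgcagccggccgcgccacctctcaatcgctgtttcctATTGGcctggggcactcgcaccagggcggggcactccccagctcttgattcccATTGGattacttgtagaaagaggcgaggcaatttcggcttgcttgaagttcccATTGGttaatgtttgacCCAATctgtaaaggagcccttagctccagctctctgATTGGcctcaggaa
Insig1: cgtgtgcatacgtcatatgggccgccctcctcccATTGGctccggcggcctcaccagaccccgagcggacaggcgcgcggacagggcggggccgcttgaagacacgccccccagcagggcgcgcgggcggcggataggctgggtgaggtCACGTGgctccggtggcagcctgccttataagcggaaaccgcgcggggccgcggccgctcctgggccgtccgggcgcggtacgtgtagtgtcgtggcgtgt
Dhcr7: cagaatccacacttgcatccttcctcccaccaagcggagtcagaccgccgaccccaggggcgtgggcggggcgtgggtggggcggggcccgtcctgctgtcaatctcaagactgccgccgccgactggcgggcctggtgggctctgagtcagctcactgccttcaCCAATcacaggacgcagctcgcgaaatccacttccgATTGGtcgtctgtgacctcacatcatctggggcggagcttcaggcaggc

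Signals are linear MAS5 intensities, as deposited. The median of each array (21.7 on the knockout-labelled array and 21.6 on the control array) served as a floor, and lower signals were set to it. Ratios are log2 values of knockout-labelled over control signal. A gene is given by its brightest probe set unless another is named, and signals of different probe sets cannot be compared with each other. With 1 array per group there is no replicate error and no test, so every ratio below compares 2 RNA preparations. The closest guide to measurement error is the spread among different probe sets of 1 gene, whose log2 ratios had a median SD of 0.21 over 4719 genes. Zbtb20 itself was lower with 5 and higher with 4 of its 9 probe sets, the brightest reading 205 in knockout-labelled and 238 in control islets. The log2 ratios of the 9 probe sets ran from -0.87 to 0.54. These signals do not settle the genotype, so the group is named by its label, knockout-labelled.

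The cholesterol and fatty acid synthesis genes differed between the 2 arrays about as much as all measured genes did. Their median absolute log2 ratio was 0.205, beside 0.210 over all genes. This comparison was not matched for signal, on which the spread of ratios depends. All 35 members above the floor on at least 1 array were above it on both, and none reached a 2-fold difference in either direction. Over all 11802 genes above the floor on at least 1 array, 1.82% were higher by 2-fold or more and 1.44% lower by 2-fold or more. The members' log2 ratios ran from -0.72 to 0.89, with a median of 0.049 and quartiles of -0.13 and 0.25. Over all genes the median was 0 and the quartiles were -0.21 and 0.22. The members thus lay in about the same range as the bulk of the genes on these arrays, 19 of them above 0 and 16 below.

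**Figure D1:**
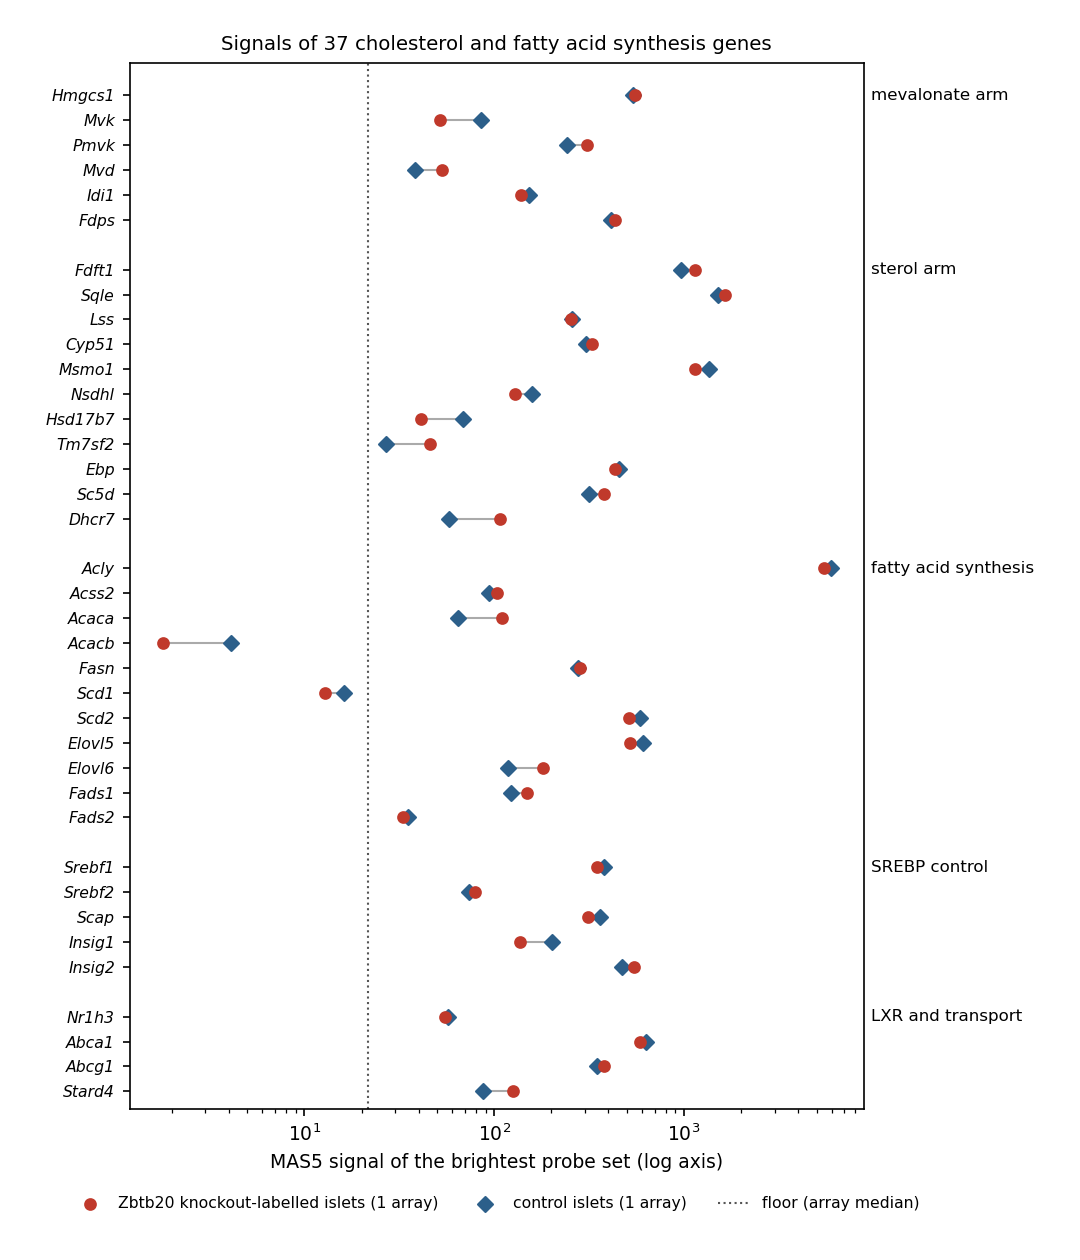
MAS5 signal (log axis) of the brightest probe set of each of 37 genes, in pathway order by role. Red circles are knockout-labelled islets and blue diamonds control islets, 1 array each, and the dotted line is the floor of 21.7. Most pairs of points touch, and Acacb and Scd1 lie under the floor on both arrays.

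At a lower limit of 1.5-fold, 4 members were higher and 2 were lower in knockout-labelled islets. That is 11.4% and 5.71% of the 35 members, beside 6.9% and 6.2% of all genes. The 4 higher genes were Dhcr7, Tm7sf2, Acaca and Elovl6, and the 2 lower ones were Mvk and Hsd17b7. All 6 had mean signals under 300, where ratios vary most. Among members with a mean signal between 20 and 70, 3 of 6 passed 1.5-fold, as did 24.8% of all genes in that range. Between 70 and 300 it was 3 of 13 members and 10.0% of all genes. Above 300, none of the 16 members passed it, beside 5.13% of all genes in that range.

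**Figure D2:**
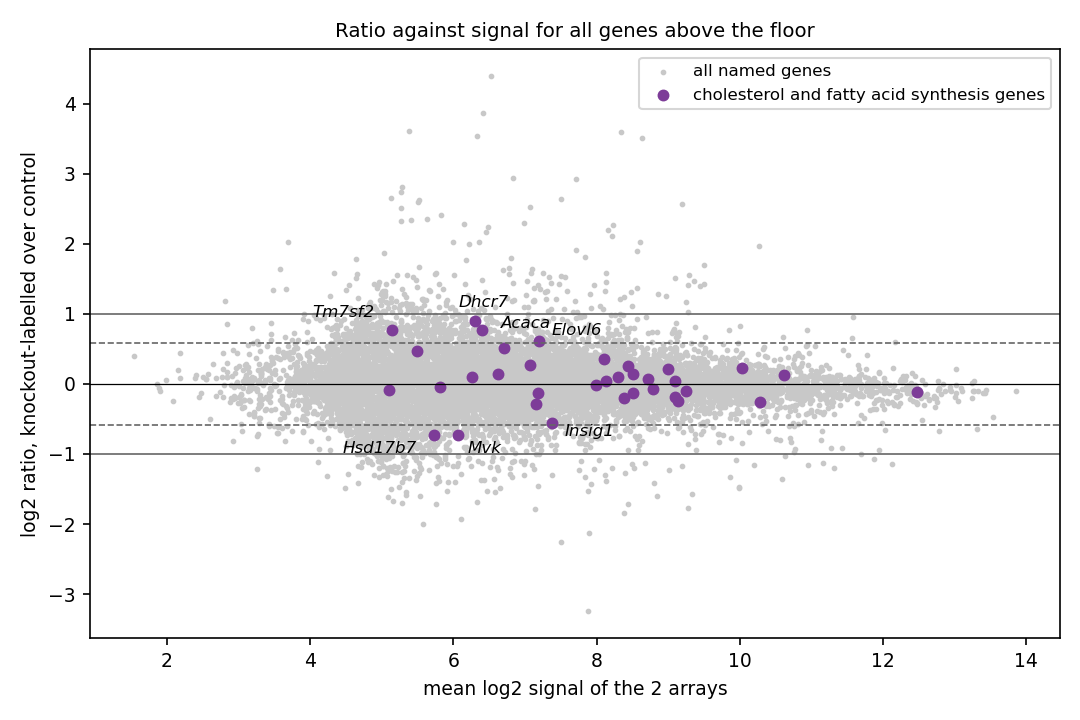
Log2 ratio of knockout-labelled over control signal against mean log2 signal, for all 11802 genes above the floor on at least 1 array (grey) and the 35 members (purple). Solid lines mark 2-fold and dashed lines 1.5-fold. The members lie inside the 2-fold lines, and those outside the dashed lines all have mean signals under 300.

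The mevalonate arm turns acetyl-CoA into farnesyl diphosphate, the precursor of squalene and of prenyl groups on proteins. Of its 6 measured genes, 4 had ratios above 0 and 2 below, with a median log2 ratio of 0.056. Hmgcs1, which makes HMG-CoA, had signals of 552 in knockout-labelled and 538 in control islets. Its 4 probe sets above the floor ran from -0.16 to 0.17 in log2 ratio, on both sides of 0. Fdps, the farnesyl diphosphate synthase, was at 432 in knockout-labelled and 410.1 in control islets. These 2 genes, the first measured gene of the arm and the one at its exit, were 1.03-fold and 1.05-fold higher.

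Mvk, which phosphorylates mevalonate, had the lowest ratio of all members. Its brighter probe set read 51.8 in knockout-labelled and 85.5 in control islets, 1.65-fold lower (log2 ratio -0.72). Its other probe set went the other way, at 46 in knockout-labelled and 39.7 in control islets (log2 ratio 0.21). The 2 probe sets of this gene therefore give no common direction.

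The next steps, a kinase and a decarboxylase, had ratios above 0 by their brightest probe sets. Pmvk, the phosphomevalonate kinase, read 309.8 in knockout-labelled and 243 in control islets (log2 ratio 0.35) with its single probe set. Mvd, the decarboxylase, read 53.1 in knockout-labelled and 38.3 in control islets (log2 ratio 0.47). The other Mvd probe set gave -0.14, so the 2 again disagreed in sign. Idi1, the isopentenyl diphosphate isomerase, was at 139 in knockout-labelled and 153 in control islets (log2 ratio -0.14), against 0.42 for its other probe set.

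The sterol arm runs from squalene to cholesterol. Its 11 genes were all measured, 6 with ratios above 0 and 5 below, with a median log2 ratio of 0.10. Fdft1, the squalene synthase at the branch point from prenyl lipids, read 1137 in knockout-labelled and 968 in control islets (log2 ratio 0.23), and 0.027 with its other probe set. Sqle, the squalene epoxidase and a rate-limiting step of the pathway, read 1650.1 in knockout-labelled and 1505 in control islets (log2 ratio 0.13). Both enzymes were slightly higher, by amounts near or below the probe set spread of 0.21.

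Lss, which closes squalene epoxide into lanosterol, depended on the probe set. The brightest read 253 in knockout-labelled and 257 in control islets (log2 ratio -0.022), while another read 158 in knockout-labelled and 99.2 in control islets (log2 ratio 0.67). That was the only probe set beyond the brightest of each member that passed 1.5-fold. Cyp51, the lanosterol demethylase, was at 327 in knockout-labelled and 305 in control islets (log2 ratio 0.10). Its other probe set above the floor on both arrays gave -0.18.

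The 3 genes of the complex that removes the remaining methyl groups had ratios below 0 by their brightest probe sets. Msmo1, the methylsterol oxidase, read 1139 in knockout-labelled and 1361 in control islets (log2 ratio -0.26). Nsdhl, a sterol dehydrogenase, read 129 in knockout-labelled and 158 in control islets (log2 ratio -0.29). Hsd17b7, the ketosteroid reductase of the same complex, read 41.4 in knockout-labelled and 68.3 in control islets, 1.65-fold lower (log2 ratio -0.72). Its other probe set above the floor went the other way, at 31.9 in knockout-labelled and 24.4 in control islets (log2 ratio 0.39). With an SD of 0.78 between them, these were the most discordant probe sets of any member.

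Dhcr7 and Tm7sf2 had the highest ratios of the list. Dhcr7, the reductase that makes cholesterol from dehydrocholesterol, read 107 in knockout-labelled and 57.8 in control islets, 1.86-fold higher (log2 ratio 0.89). Tm7sf2, a sterol reductase, read 45.9 in knockout-labelled and 26.9 in control islets, 1.71-fold higher (log2 ratio 0.77). Each had a single probe set, so neither value could be checked within the array. Among the 590 genes of like mean signal (the same 1 of 20 equal groups), 3.05% had a ratio at least as high as that of Dhcr7, and 8.47% of the 590 around Tm7sf2 at least as high as its own.

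Sc5d, a sterol desaturase, had ratios above 0 with each of its 3 probe sets, from 0.18 to 0.26. The brightest read 379 in knockout-labelled and 316 in control islets. This was the closest agreement of probe sets among the members, with an SD of 0.041. Ebp, a sterol isomerase, read 431 in knockout-labelled and 453 in control islets (log2 ratio -0.072). The 2 genes act next to each other and before Dhcr7.

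**Figure D3:**
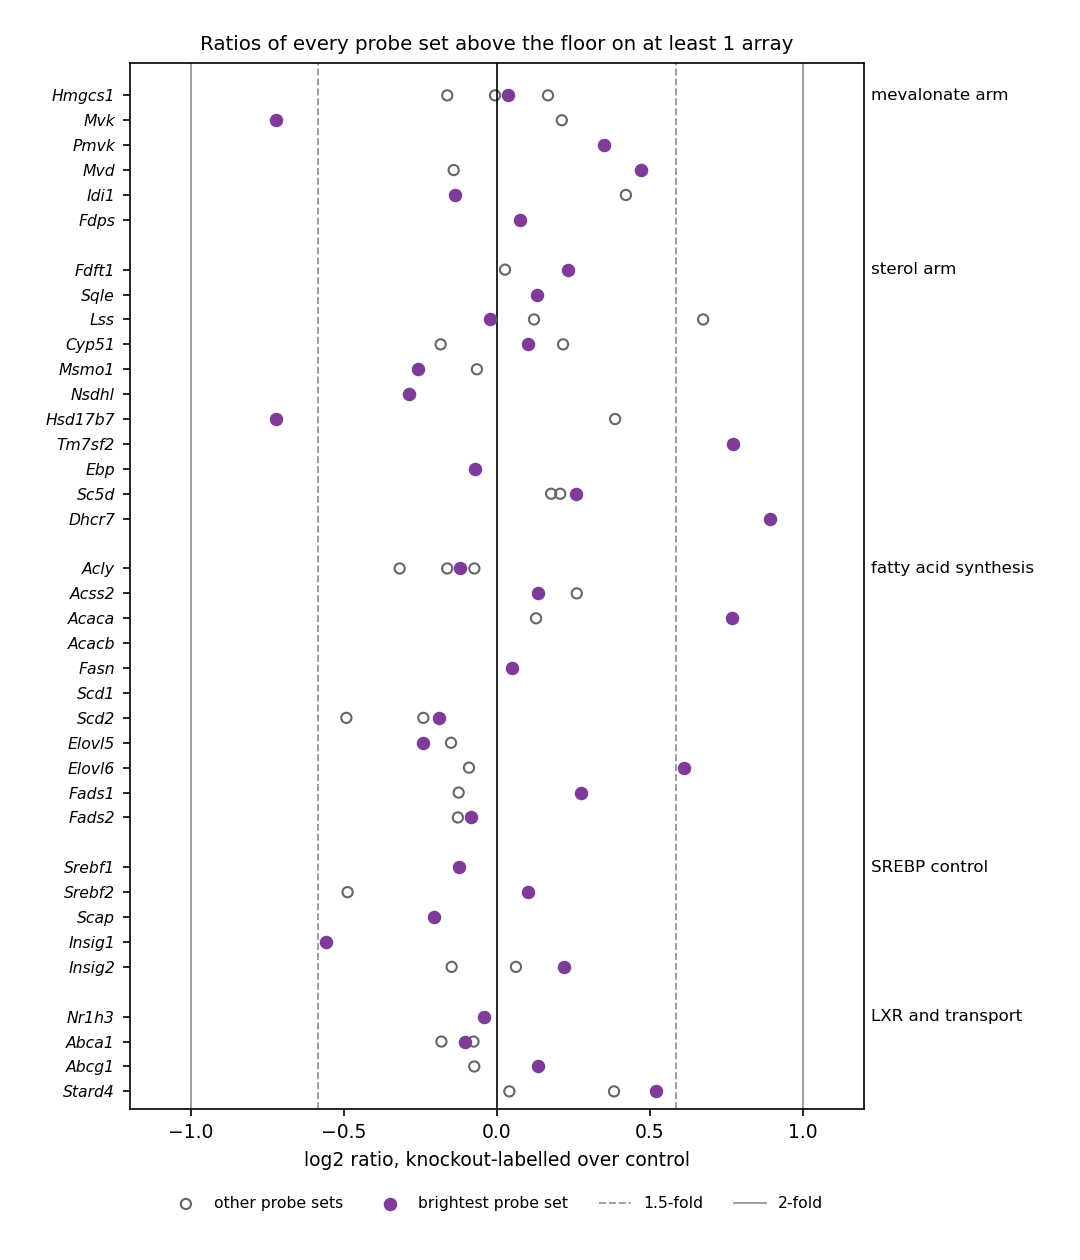
Log2 ratio of knockout-labelled over control signal for every probe set of the members above the floor on at least 1 array. Filled purple points are the brightest probe set of a gene and open points the others, with dashed lines at 1.5-fold and solid lines at 2-fold. For Mvk and Hsd17b7 the filled and open points lie on opposite sides of 0, and for Sc5d they cluster.

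Fatty acid synthesis starts with the supply of cytosolic acetyl-CoA. Acly, which cleaves citrate to provide it, read 5439 in knockout-labelled and 5919 in control islets (log2 ratio -0.12). Its 4 probe sets above the floor were all slightly lower, from -0.32 to -0.073. Acss2, which makes acetyl-CoA from acetate, read 104 in knockout-labelled and 94.3 in control islets (log2 ratio 0.14), with 0.26 in its other probe set above the floor.

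Acaca, the acetyl-CoA carboxylase that makes malonyl-CoA for synthesis, read 110.4 in knockout-labelled and 64.8 in control islets, 1.70-fold higher (log2 ratio 0.77). Its other probe set gave 28.2 in knockout-labelled and 25.8 in control islets (log2 ratio 0.13). The direction was shared and the size was not. Acacb, the mitochondrial carboxylase whose malonyl-CoA restrains fatty acid oxidation, was under the floor on both arrays with both its probe sets. Fasn, the fatty acid synthase that builds palmitate, read 284 in knockout-labelled and 275 in control islets (log2 ratio 0.049) with its single probe set.

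Among the enzymes that lengthen and desaturate fatty acids, only Elovl6 passed 1.5-fold. Elovl6, which elongates palmitate, read 181 in knockout-labelled and 119 in control islets, 1.53-fold higher (log2 ratio 0.61). Its other probe set above the floor read 81.5 in knockout-labelled and 86.8 in control islets (log2 ratio -0.091). Elovl5, an elongase of polyunsaturated fatty acids, read 518 in knockout-labelled and 612 in control islets (log2 ratio -0.24), with -0.15 in its other probe set. The 2 elongase genes thus had ratios on opposite sides of 0 by their brightest probe sets.

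Scd2, a stearoyl-CoA desaturase that makes monounsaturated fatty acids, had ratios below 0 with each of its 3 probe sets. The brightest read 513 in knockout-labelled and 585 in control islets (log2 ratio -0.19), and the lowest ratio of the 3 was -0.49. Scd1, the better known isoform of liver and fat, was under the floor with both probe sets, the brighter at 12.8 in knockout-labelled and 16.2 in control islets. Fads1, a desaturase of polyunsaturated fatty acids, read 148 in knockout-labelled and 122 in control islets (log2 ratio 0.27), and -0.12 with its other probe set. Fads2, the partner desaturase, read 33.2 in knockout-labelled and 35.2 in control islets (log2 ratio -0.084). Over the 9 measured genes of fatty acid synthesis, 5 ratios were above 0 and 4 below, with a median of 0.049.

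The genes that control SREBP were also close to equal, with 2 of 5 above 0, 3 below and a median log2 ratio of -0.12. Srebf1, whose product favours the fatty acid genes, read 348 in knockout-labelled and 379 in control islets (log2 ratio -0.12). Srebf2, whose product favours the cholesterol genes, read 79.4 in knockout-labelled and 73.9 in control islets (log2 ratio 0.10), while its other probe set gave -0.49. Scap, the escort protein gene, read 312 in knockout-labelled and 359.6 in control islets (log2 ratio -0.20). None of the 3 genes differed by 1.5-fold with any probe set above the floor.

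Insig1, which encodes the retention protein and is itself switched on by SREBP, read 136 in knockout-labelled and 201 in control islets, 1.47-fold lower (log2 ratio -0.56). It was the largest difference of the group and rests on a single probe set. Of the 590 genes of like mean signal, 4.24% had a ratio at least as low. Insig2, the isoform not driven by SREBP, read 548 in knockout-labelled and 471 in control islets (log2 ratio 0.22), and its 3 probe sets ran from -0.15 to 0.22. The 2 INSIG genes thus lay on opposite sides of 0 by their brightest probe sets.

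The LXR and transport genes had ratios above 0 in 2 of 4 and a median of 0.047. Nr1h3, the measured liver X receptor gene, read 55.3 in knockout-labelled and 56.9 in control islets (log2 ratio -0.041). Its target Abca1, which exports cholesterol to apolipoprotein A-I, read 588 in knockout-labelled and 632 in control islets (log2 ratio -0.11), with all 3 probe sets between -0.18 and -0.076. Abcg1, another exporter and LXR target, read 381 in knockout-labelled and 347 in control islets (log2 ratio 0.14), and -0.074 with its other probe set. The receptor and both exporters were within 1.5-fold of equal with every probe set above the floor.

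Stard4, a cytosolic sterol carrier and SREBP target, was the exception in size. Its brightest probe set read 125 in knockout-labelled and 87.3 in control islets, 1.43-fold higher (log2 ratio 0.52). The other 2 probe sets gave 0.38 and 0.041, all on the higher side. Stard4 and Insig1 are both known SREBP targets, and their ratios lay on opposite sides of 0.

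Probe sets of 1 member often disagreed. Of the 21 members with at least 2 probe sets above the floor on both arrays, 9 had all ratios on 1 side of 0 and 12 did not, so that 42.9% agreed in sign, beside 48.7% of the 4719 genes of the whole array with as many probe sets. The 9 were Fdft1, Sc5d, Acly, Acss2, Acaca, Scd2, Elovl5, Abca1 and Stard4. None of the 6 members at 1.5-fold had another probe set that passed 1.5-fold the same way, although 4 of them had another probe set above the floor on both arrays. The same count was not made over all genes, so it cannot be read as particular to the members. The median SD among probe sets was 0.20 for the members.

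Motifs in the 250-base windows were compared with those of all genes. The table of promoters held 31 of the 39 members. Fdps, Fdft1, Sqle, Scd1, Scd2, Fads1, Abcg1 and Stard4 were not in it, so their promoters were not searched. The sterol regulatory element core TCACNCCAC was found in 1 member, Hmgcs1, and in 1.22% of all 27025 genes in the table. The E-box was found in 7 members (22.6%) and in 6.86% of all genes, and the CCAAT box in 22 members (71.0%) and in 37.5% of all genes. Over the 9591 genes with a promoter and a signal above the floor, these shares were 10.0% for the E-box and 39.7% for the CCAAT box. A direct repeat for LXR in its strict form was found in none of the members and in 0.0148% of all genes.

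The ratios of the members with a motif did not share a direction. Of the 7 members with an E-box, 2 had ratios above 0 and 5 below, with a median log2 ratio of -0.20. They included both Dhcr7 and Hsd17b7. The 21 measured members without an E-box had a median of 0.037, with 11 above 0 and 10 below. Of the 21 measured members with a CCAAT box, 11 were above 0 and 10 below, with a median log2 ratio of 0.037, and the 7 without one had 2 above and 5 below. In the windows printed above, Mvk had 5 CCAAT boxes on both strands and Dhcr7 had 2, and these genes gave ratios of -0.72 and 0.89. A match in a window is a feature of the letters only and does not show that a factor binds there.

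Other genes of the same pathways were taken from a list of 52, of which 43 had a 1-gene probe set and 39 were above the floor. Their median log2 ratio was -0.068, with 15 above 0 and 24 below. At 2-fold, none was higher and 1 was lower, beside 1.82% and 1.44% of all genes. At 1.5-fold, 1 was higher and 2 were lower, beside 6.9% and 6.2% of all genes. Acsl3, which activates long-chain fatty acids, read 65.2 in knockout-labelled and 134 in control islets, 2.06-fold lower (log2 ratio -1.04). Another Acsl3 probe set gave -0.93 with its knockout-labelled signal under the floor. This was the largest difference in the 2 lists, and the only one of 1.5-fold or more that a further probe set shared.

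Apoe, the apolipoprotein that carries cholesterol out of macrophages and other cells, read 218 in knockout-labelled and 116 in control islets, 1.87-fold higher (log2 ratio 0.90) with its single probe set. Macrophages express Apoe strongly, and macrophage markers were higher on the same array. Their part in the Apoe ratio was not tested. Erlin2, which helps to degrade sterol pathway proteins at the endoplasmic reticulum, read 145 in knockout-labelled and 221 in control islets, 1.52-fold lower (log2 ratio -0.60). The other genes of SREBP processing were within 1.5-fold by their brightest probe sets.

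Macrophage and acinar cell markers had medians farther from 0 than any role group of the synthesis genes. For 11 measured macrophage markers the median log2 ratio was 0.57, with 10 above 0, and their signals, over the same probe sets on each array, summed to 1470.3 in knockout-labelled and 924 in control islets. C1qa read 404 in knockout-labelled and 262 in control islets and Cd14 read 202 in knockout-labelled and 137 in control islets, while Itgam and Aif1 were under the floor on both. The log2 ratios of Mrc1 and C1qb were 2.42 and 1.21, and that of Fcer1g, under the floor in control islets, was at least 1.26. For 9 acinar cell markers it was -1.005, with 8 below 0, and the signals summed to 21794 in knockout-labelled and 41614 in control islets. In that list Cela3b read 5590 (knockout-labelled) and 8913 (control), and Prss2 read 3013 (knockout-labelled) and 6649 (control). The log2 ratios of Cel, Cpa1 and Cela1 were -1.16, -1.12 and -1.07. Duct cell markers were below 0 in 5 of 5 measured genes, with a median of -0.32. In that list Krt18 and Krt8 had ratios of -0.27 and -0.40, and Car2, under the floor in knockout-labelled islets, was at least 2.66-fold lower.

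Among the endocrine cells, the 10 beta cell markers had a median of -0.077 in log2 ratio and summed to 31826 in knockout-labelled and 34406 in control islets, with 4 above 0 and 6 below. Iapp and Ins2 were at -0.11 and -0.24, and the other Iapp probe sets ran from -0.17 to 0.85. The other measured beta cell markers were named after their values were seen. Of these, Pcsk1, Slc2a2, Glp1r and Nkx6-1 were at 0.77, 0.52, 0.31 and 0.059. Ucn3, Pdx1, G6pc2 and Slc30a8 were at -0.54, -0.36, -0.28 and -0.048, with 0.34 for the other Pdx1 probe set. Alpha cell markers had a median of -0.39 over 4 genes, all of them below 0, and delta and PP cell markers one of 0.016 over 5. Endothelial markers had a median of -0.19 over 8 genes and fibroblast markers one of -0.37 over 7. Adipocyte markers, examined because fat cells are rich in the enzymes of fatty acid synthesis, had 3 of 7 genes above the floor on at least 1 array, with a median of 0.25 and 2 above 0. Fabp4 read 677 in knockout-labelled and 570.2 in control islets (log2 ratio 0.25), and its other probe sets above the floor ran from -0.39 to 0.45. Lipe read 39.4 in knockout-labelled and 32 in control islets (log2 ratio 0.30). Retn, under the floor in knockout-labelled islets, was at least 1.23-fold lower. Adipoq read 0.6 in knockout-labelled and 12.3 in control islets, under the floor on both. Fewer cells of a type and less RNA per cell cannot be told apart in whole islets, and the part of these cell types in the members' ratios was not tested.

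**Figure D4:**
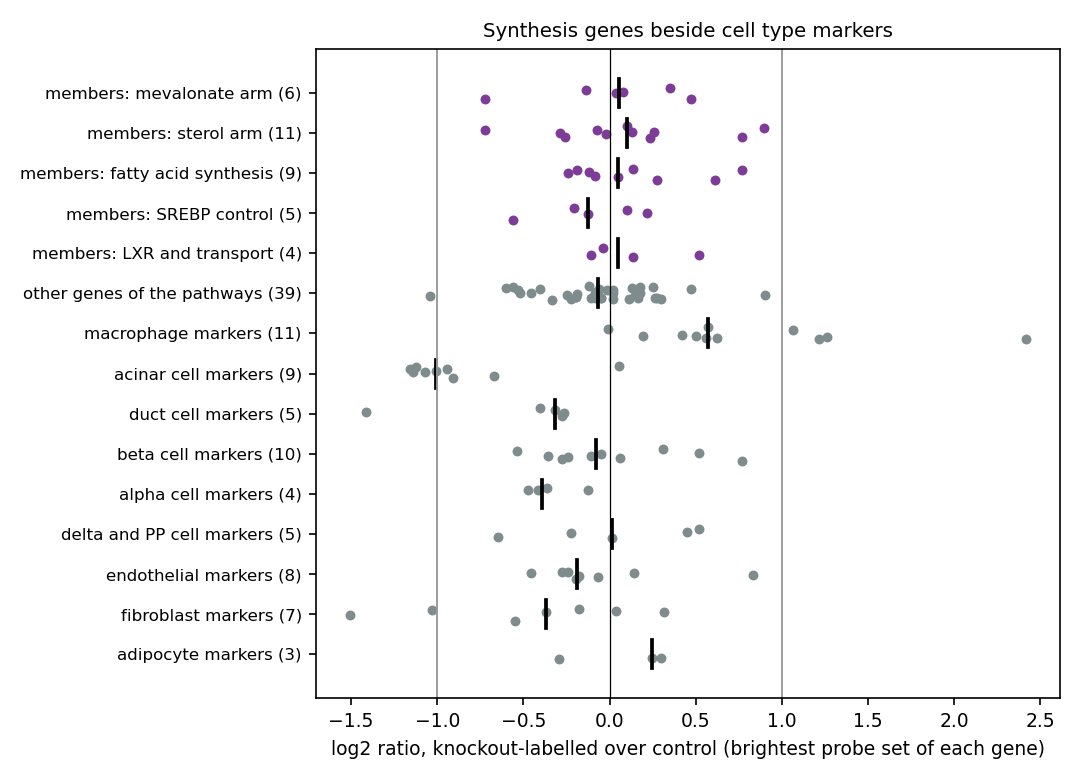
Log2 ratio of knockout-labelled over control signal for each measured gene (points) and the median of each list (black bars), with the number of genes in brackets. Purple rows are the members by role, grey rows the other genes of the pathways and cell type markers, and vertical lines mark 2-fold. The member rows centre near 0, the macrophage row lies to the right and the acinar row to the left.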

How the data were processed

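The deposited table holds MAS5 intensities of probe sets on a linear scale, per the submitters' processing notes. MAS5 combines perfect match and mismatch probes into 1 signal per probe set. The sources used here do not give the scaling target or the detection calls. The table held 45037 probe sets, of which the platform annotation pairs 34945 with 1 gene, 932 with several and 9160 with none, and only the first kind was used. The Entrez identifiers of all 37 members matched the same symbol in RefSeq (GRCm38.p6).

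Signals under the 50th percentile of an array were raised to it, and the log2 ratio was taken for each gene's brightest probe set (highest mean log2 signal over the arrays), with numpy 2.4.6 and pandas 2.3.3. The array number, 1 per group, limits the precision, and no p-value, SD or interval between groups can be given. Genes of like signal are those in the same 1 of 20 equal groups by mean log2 signal. The procedure was tested on simulated data in which all probe sets of a changed gene shifted alike. That checks the calculation and not the error of the real ratios. Alternatives changed the floor, the scaling, the probe set rule and the fold limit. All members are named, with every other pathway gene at 1.5-fold or more. In each marker list the rule takes the 2 brightest genes and those at 2-fold, and the text gives only some of these. Itgam, Aif1, Adipoq, Retn and the beta cell markers other than Iapp and Ins2 were added after their values were seen. The members and lists were chosen with earlier results of these data known.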

Additional observations from a re-analysis of the deposited data

How the results depend on the processing

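No member reached 2-fold under the floors at the 30th and 70th percentile, with a pseudocount of 16 in place of a floor, with median, quantile or loess scaling, with the mean over all probe sets, or with plain probe sets only (IDs ending in _at with no letter before it). At a limit of 1.5-fold, 4 members were higher and 2 lower, and at 3-fold there were none. The median of all members stayed between 0.037 and 0.062. The median of the fatty acid group turned to -0.018 with the floor at the 30th percentile, that of the mevalonate group to -0.14 with plain probe sets only, and that of the LXR and transport group to -0.0051 with the mean over all probe sets. Scaling changed the sign of no member, whereas the mean over all probe sets changed it for 3 of 35 and plain probe sets only for 4 of 32. Hsd17b7 ran from -0.75 to 0.39 and Mvk from -0.75 to -0.26. Over all genes, 695 were 2-fold higher and 638 lower with the lower floor, 96 and 64 with the higher one, 814 and 732 at 1.5-fold, and 51 and 17 at 3-fold, beside 215 and 170. No paired analysis was possible because each group has 1 array. Signals near the floor, such as those of Tm7sf2 and Fads2, can still be background.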

Other observations

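Genes that turn fatty acids into stored glycerolipid were near equal, with a median log2 ratio of -0.093 over 6 measured genes, 2 of them above 0. They were described after their values were seen. Dgat2, which makes triglyceride, read 94.9 in knockout-labelled and 100.2 in control islets. Lpin1, a phosphatidate phosphatase gene, read 166 in knockout-labelled and 152 in control islets (log2 ratio 0.13) with its brighter probe set, whereas its other one read 112 in knockout-labelled and 65 in control islets (log2 ratio 0.79). Mlxipl, which encodes the glucose-responsive lipogenic factor ChREBP, read 93 in knockout-labelled and 97 in control islets.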
